A study of Mus musculus with 16 samples.

Results

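Fat stored in adipocytes is released by a short chain of enzymes, and the chromatin around 6 genes of that chain (Pnpla2, Lipe, Mgll, Abhd5, Lpl and Adrb3) was followed in 3T3-L1 preadipocytes, a mouse fibroblast-like line that turns into adipocytes when given an inducing cocktail. The 6 genes were taken from a named list chosen by workers who already knew results of these data, and they are 6 of the 22380 protein-coding genes that were given a window. Each window was the annotated gene body plus 50 kb on each side on the mm9 mouse genome, and every island of the 16 deposited lists that overlapped it by at least 1 bp was taken. An island is a stretch of 200 bp windows enriched for ChIP-seq reads. Because the genes were selected on earlier results, their values are described without a test, and counts are set beside the percentage of all windows that met the same condition.

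The study asked how SETD5, a protein that works with the NCoR-HDAC3 corepressor, acts on enhancers during adipogenesis. Those 3T3-L1 cells that carried a virus were 2 kinds of stable line made by retroviral infection. They held either an empty vector or SETD5 with a V5 tag under the weak promoter of the viral long terminal repeat, so that SETD5 was in moderate excess in the latter. All cells were compared before and after MDI, a cocktail of insulin, dexamethasone and isobutylmethylxanthine. H3K27ac, an acetylation of histone H3 found at active enhancers and promoters, was profiled at 0 h and 48 h (Day 0 and Day 2 in the labels) in both kinds of line, with 2 biological replicates (A and B) in each of the 4 groups. SETD5-V5 was mapped with the V5 antibody at 0 h and 6 h in replicates A and B, of which the labels name the virus for B only. H3K4me1, a methylation of primed and active enhancers, was mapped at 0 h and 48 h in 1 library each, with SETD-V5 as the labelled virus. Endogenous SETD5 was mapped with an antibody to the protein itself at 0 h and 6 h in 1 library each, with no virus named. No source used here names separate infections for replicates A and B, so their spread may be that of culture and assay alone.

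The 8 H3K27ac lists held 31292 to 39949 islands over 103 to 122 Mb, and the 2 H3K4me1 lists held 49926 and 50276 islands. SETD5-V5 lists held 16054 and 6666 islands at 0 h and 35573 and 27220 at 6 h, and the endogenous SETD5 lists held 2132 and 3293. At 48 h the median H3K27ac island was 2800 and 2400 bp long with the empty vector and 2000 and 2200 bp long with SETD5. The lists give islands and scores, not reads, so the number of reads behind a window is unknown here and an absent island means only that the caller's limit was not passed. By the study's records of total reads, both SETD5 H3K27ac libraries were read more deeply than both empty-vector libraries at either time, and both SETD5-V5 libraries at 6 h more deeply than both at 0 h. The part of these depth differences in the results was not tested. An H3K27ac island lay within 1 kb of the start of 4 of 4 fibroblast genes (Col1a1, Col1a2, Pdgfra, Thy1) and 3 of 3 preadipocyte genes (Pparg, Cebpb, Dlk1) in 8 of 8 lists, and at none of the immune genes Ptprc and Cd3e or the endothelial genes Cdh5 and Pecam1 in any list, so the markers went with the label of the cell line.

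Lipolysis takes triglyceride apart in steps. PNPLA2 (adipose triglyceride lipase) removes the initial fatty acid once its coactivator ABHD5 is freed from the droplet coat, LIPE (hormone-sensitive lipase) acts on the diglyceride that is left, and MGLL (monoglyceride lipase) releases the last fatty acid and glycerol. The cascade is switched on by catecholamines through the β3-adrenergic receptor ADRB3 and cyclic AMP, the messenger that the cocktail's isobutylmethylxanthine also raises. LPL (lipoprotein lipase) works outside the cell: it is secreted and frees fatty acids from circulating lipoproteins so that the adipocyte can take them up, and it is a well-known early marker of adipogenesis.

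The starts of these genes differed in their islands, and the bases before them are printed here to show the sequence at starts with and without an island. The sequences run 5′ to 3′ on the strand of the gene, are the 250 bases before the annotated start on mm9, and carry capitals only where 1 of the 4 searched motifs was found. The starts of Pnpla2 (chr7:148640847-148641096, plus strand), Abhd5 (chr9:122260476-122260725, plus strand) and Lpl (chr8:71404140-71404389, plus strand) lay under an H3K27ac island in 8 of 8 lists. At Pnpla2 that island held only part of the printed bases in some lists at 0 h. A Lipe start inside the gene, 8.6 kb after the outermost one (chr7:26175126-26175375, minus strand), did so too, whereas the annotated start of Mgll (chr6:88674156-88674405, plus strand) lay under no island of any of the 16 lists.
Pnpla2: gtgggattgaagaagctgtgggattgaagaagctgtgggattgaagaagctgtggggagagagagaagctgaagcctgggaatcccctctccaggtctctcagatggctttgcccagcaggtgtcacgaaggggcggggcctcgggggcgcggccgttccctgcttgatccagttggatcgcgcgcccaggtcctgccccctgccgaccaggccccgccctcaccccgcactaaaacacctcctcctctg
Abhd5: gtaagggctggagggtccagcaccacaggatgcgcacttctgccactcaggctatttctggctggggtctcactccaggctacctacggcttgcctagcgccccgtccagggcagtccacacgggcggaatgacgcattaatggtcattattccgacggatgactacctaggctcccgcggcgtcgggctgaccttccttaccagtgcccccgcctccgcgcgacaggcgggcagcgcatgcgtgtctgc
Lipe: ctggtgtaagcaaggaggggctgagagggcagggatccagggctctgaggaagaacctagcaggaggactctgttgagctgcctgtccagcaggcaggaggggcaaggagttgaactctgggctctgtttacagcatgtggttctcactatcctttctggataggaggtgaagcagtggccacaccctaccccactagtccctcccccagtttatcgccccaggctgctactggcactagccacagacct
Lpl: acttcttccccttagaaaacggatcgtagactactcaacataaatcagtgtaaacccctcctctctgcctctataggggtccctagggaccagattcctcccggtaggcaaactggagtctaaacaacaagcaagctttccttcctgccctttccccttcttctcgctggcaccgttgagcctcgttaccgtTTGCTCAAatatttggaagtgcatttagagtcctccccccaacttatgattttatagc
Mgll: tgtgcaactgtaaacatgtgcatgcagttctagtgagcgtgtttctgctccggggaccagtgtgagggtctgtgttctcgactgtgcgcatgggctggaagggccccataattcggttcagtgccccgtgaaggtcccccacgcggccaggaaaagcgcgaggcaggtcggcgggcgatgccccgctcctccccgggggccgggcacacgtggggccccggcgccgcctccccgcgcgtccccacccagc

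Motifs were searched on both strands from 250 bases before to 50 bases after each start. They were the C/EBP letters TTGCNNAA, the AP-1 letters TGANTCA, the cyclic AMP response element TGACGTCA, and a PPAR-RXR direct repeat made of AGGNCA, any 1 base and AGGNCA again. Of these only a C/EBP match, TTGCTCAA, was found before a member's start, 58 bases upstream of Lpl. Over all 22380 promoters, 10.3% held the C/EBP letters, 6.93% the AP-1 letters, 2.32% the cyclic AMP element and 0.402% the direct repeat, so most promoters of this length hold none of them.

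The direct repeat was also searched across the 6 windows and matched at 14 places, of which 5 lay in both empty-vector H3K27ac lists at 48 h. In the genome there were 1.47 matches per 100 kb, and 5.2% of the 37613 matches lay in both of those lists. The windows other than that of Adrb3 were themselves covered over 23.7% to 52.1% of their length in those lists. The genome shares here and below are thus not a like background, and an excess in the windows was not tested. Of the other 9 matches in the 6 windows, 7 lay in no H3K27ac list. The 5 sites are printed with 10 bases on each side, since they show the letters of the adipocyte receptor motif within acetylation common to both empty-vector libraries at 48 h, and the capitals mark the 13 bases of the repeat.
Pnpla2 window, 18.5 kb upstream in Slc25a22: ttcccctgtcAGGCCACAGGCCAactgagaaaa
Lipe window, 7.5 kb downstream of the outermost start, intronic: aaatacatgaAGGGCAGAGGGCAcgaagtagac
Mgll window, 6.9 kb upstream, intergenic: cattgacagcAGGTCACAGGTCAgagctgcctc
Abhd5 window, 40 kb upstream, intergenic: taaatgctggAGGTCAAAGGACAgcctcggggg
Lpl window, 33.8 kb downstream of the start, intergenic: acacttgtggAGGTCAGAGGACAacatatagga

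The site upstream of Mgll (chr6:88667544-88667556, minus strand) was the only 1 of the 5 that was absent from both empty-vector lists at 0 h and from both SETD5 lists at 48 h. It lay in the H3K4me1 list at 48 h and not in that at 0 h, and in no SETD5-V5 list. In the genome 1.81% of matches were in both empty-vector lists at 48 h and neither at 0 h, and 0.561% were also absent from both SETD5 lists at 48 h. The Lipe site (chr7:26176194-26176206) lay in all 8 H3K27ac lists and in both H3K4me1 lists, and the Abhd5 site (chr9:122220736-122220748) also lay in all 8 H3K27ac lists. The Lpl site (chr8:71438178-71438190) was missing from 1 of the 2 SETD5 lists at 48 h, and the Pnpla2 site (chr7:148622590-148622602) from both. A match of letters is a description of the sequence and does not show that a receptor binds there.

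Over 48 h with the empty vector, the H3K27ac length rose in 4 of the 6 windows (Mgll, Abhd5, Lipe and Lpl), fell in 1 (Adrb3) and overlapped between times in 1 (Pnpla2). Here and below, a length is called higher or lower when both libraries of a group lie beyond both libraries of the other, and all windows with an island in the comparison serve as background. The condition for higher was met by 40.1% of 17871 windows and that for lower by 23.3%. In SETD5 cells 4 windows rose (Pnpla2, Lipe, Abhd5 and, by a small margin, Lpl) and none fell, against a background of 31.9% higher and 30.6% lower. At 48 h SETD5 cells had less H3K27ac length than empty-vector cells in 2 windows (Mgll and Lpl, background 33.4%) and more in 1 (Adrb3, background 22.6%). At 0 h they had less in 2 (Pnpla2 and Lpl, background 14.3%) and more in 1 (Abhd5, background 25.1%). These comparisons share libraries, so the counts are not independent of each other.

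**Figure D1:**
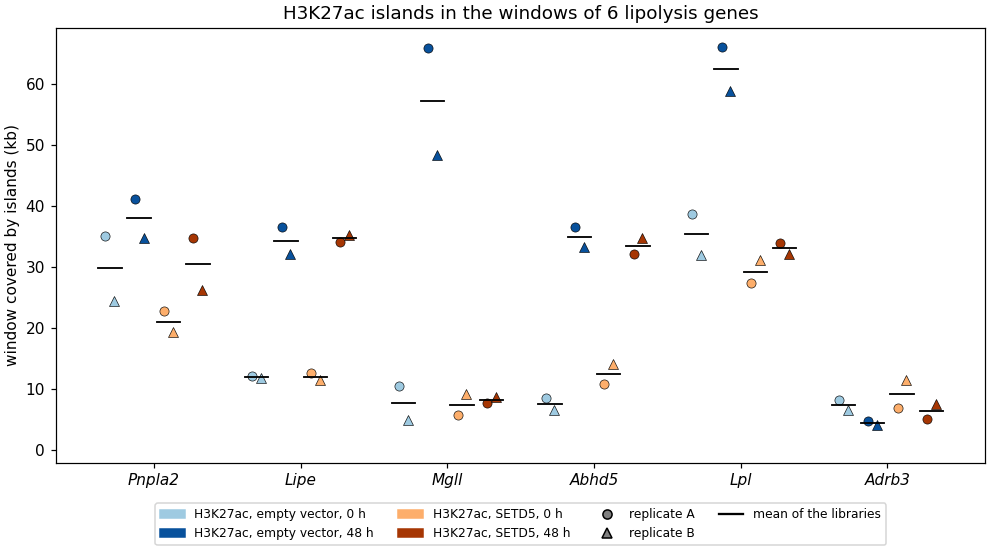
Length of each gene's window (gene body plus 50 kb on each side) covered by H3K27ac islands, in kb, for the 6 genes; each point is 1 library (circle, replicate A; triangle, replicate B), colours are the 4 groups and black lines are the means of the 2 libraries. The Mgll and Lpl windows reach 48.4 to 66.1 kb in empty-vector cells at 48 h and stay at 7.8 to 8.8 kb and 32.2 to 34 kb in SETD5 cells, while Lipe and Abhd5 reach 32.2 to 36.6 kb with either vector.

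Pnpla2, the gene of the triglyceride lipase, lies on chromosome 7 (148641097 to 148646642) in a crowded window with 11 other coding genes. Its window held 35.2 and 24.4 kb of H3K27ac in empty-vector libraries A and B at 0 h and 41.2 and 34.8 kb at 48 h. In SETD5 cells it held 22.8 and 19.4 kb at 0 h and 34.8 and 26.2 kb at 48 h. Library A exceeded library B in each of the 4 groups, the times overlapped with the empty vector, and the 48 h groups of the 2 vectors met at 34.8 kb. The highest-scoring island of the window lay 17.7 to 25.9 kb downstream of the start in 7 of the 8 lists, outside the gene, and the window total therefore reads its neighbours as well as Pnpla2.

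The island over the Pnpla2 start did not overlap in length between times in either line. It was 2600 and 1400 bp long with the empty vector at 0 h and 12400 and 12200 bp at 48 h. With SETD5 it was 1600 and 1400 bp at 0 h and 11200 and 7600 bp at 48 h. The start island lengthened in all 4 replicate series, and the SETD5 libraries at 48 h were shorter than the empty-vector ones without overlap. Part of this lay in how islands were joined. With the empty vector, separate islands of 2200 and 2000 bp lay over the start of Rplp2 at 0 h. At 48 h that start was under the same island as the Pnpla2 start. In SETD5 library B at 48 h an island of 2800 bp (chr7:148632601-148635400) stayed separate from the one of 7600 bp. In rank the start island moved from 60.6% and 65.9% of the list scoring higher to 2.46% and 3.05% with the empty vector, and from 50.9% and 61% to 8.48% and 25.1% with SETD5. Of the length that was new in both empty-vector libraries and also in both SETD5 lists at 48 h, the longest stretch was chr7:148636001-148640800. It ran from -5.1 to -0.3 kb relative to the start over the neighbour Rplp2, a ribosomal protein gene. Both SETD5-V5 lists at 6 h covered it. A stretch of 1000 bp inside Pnpla2 (2.7 to 3.7 kb after the start, reaching an exon) was in neither SETD5 list at 48 h.

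ABHD5 (CGI-58) is the coactivator of PNPLA2, and its gene on chromosome 9 (122260726 to 122290642) has no other coding gene in its window. H3K27ac covered 8.6 and 6.6 kb with the empty vector at 0 h and 36.6 and 33.4 kb at 48 h. With SETD5 it covered 10.8 and 14.2 kb at 0 h and 32.2 and 34.8 kb at 48 h. The window gained in both lines, by 28 and 26.8 kb with the empty vector and by 21.4 and 20.6 kb with SETD5, and the 48 h groups overlapped. The smaller gain with SETD5 goes with the higher start of those libraries at 0 h (12.5 ± 2.4 kb against 7.6 ± 1.41 kb, SD, n = 2 each). Over all windows, the empty-vector difference was larger in 1.66% and the SETD5 difference was larger in 1.85%.

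The Abhd5 start island lengthened from 2400 and 2400 bp to 9400 and 8200 bp with the empty vector, and from 5200 and 4000 bp to 8400 and 8200 bp with SETD5. Of the length that was new in both empty-vector libraries and also in both SETD5 lists at 48 h, the longest stretch was chr9:122326001-122332400. It was intergenic, 65.3 to 71.7 kb after the start. The next longest covered 5200 bp inside the gene (1.7 to 6.9 kb, outside its exons). In total 19.8 kb of the window was new at 48 h in both empty-vector libraries, 75.8% of it in both SETD5 lists and 3.03% in neither.

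LIPE, which cuts diglyceride, is encoded on chromosome 7 (26164546 to 26183729, minus strand) in a window it shares with other coding genes, Cxcl17 among them. Its window held 12.2 and 11.8 kb of H3K27ac with the empty vector at 0 h and 36.5 and 32.2 kb at 48 h. With SETD5 it held 12.6 and 11.6 kb at 0 h and 34.1 and 35.3 kb at 48 h. The 2 vectors overlapped at both times, and the mean difference at 48 h was 0.364 kb. The gain of 22.4 kb with the empty vector was exceeded in 2.66% of windows and that of 22.6 kb with SETD5 in 1.6%.

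With all islands counted, the length of the Lipe window was alike in the 2 lines while its central island was not. With islands above the median score only, both SETD5 libraries at 48 h lay below both empty-vector libraries. The log2 ratio over 48 h was then 2.10 with the empty vector and 1.24 with SETD5, against 1.52 and 1.52 with all islands. With the empty vector, the island over the Lipe start 8.6 kb inside the gene measured 7400 and 7200 bp at 0 h and 21000 and 20000 bp at 48 h. At 48 h 0.214% and 0.317% of the list scored higher, the best ranks of any island among the 6 genes. With SETD5 it measured 8600 and 7200 bp at 0 h and 13000 and 14400 bp at 48 h, with 1.14% and 1.24% of the list scoring higher. It was thus shorter with SETD5 at 48 h without overlap, and the SETD5 lists held more islands in the window (8 and 8, against 6 and 4). Within the span of the empty-vector island of library A, the SETD5 lists held further islands of 2600 and 1200 bp (A) and 3600 bp (B). Part of the difference in island length thus lay in how islands were joined. Of 17.2 kb new in both empty-vector libraries, 68.6% was in both SETD5 lists and 9.3% in neither, the latter a stretch of 1600 bp at 16.3 to 17.9 kb that reaches a Lipe exon. The outermost annotated Lipe start lay under no island of any list.

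MGLL completes the chain, and its gene on chromosome 6 (88674406 to 88778354) is long, with a window of 203.949 kb that also holds Abtb1 and Podxl2. H3K27ac covered 10.6 and 5.0 kb with the empty vector at 0 h and 66 and 48.4 kb at 48 h, a mean of 57.2 ± 12.4 kb (SD, n = 2). With SETD5 it covered 5.8 and 9.2 kb at 0 h and 7.8 and 8.8 kb at 48 h, a mean of 8.3 ± 0.707 kb. At 0 h the lines overlapped, and at 48 h every empty-vector library was far above every SETD5 library. The SETD5 mean was 0.145 of the empty-vector mean, and only 0.0283% of windows had a more negative difference. The empty-vector gain of 49.4 kb was exceeded in 0.285% of windows. Such percentages, here and at the other genes, compare differences in kb that are not scaled to window length, and the Mgll window is the longest of the members.

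At Mgll the number of H3K27ac islands went from 4 and 3 to 13 and 13 with the empty vector, and from 3 and 4 to 5 and 5 with SETD5. The empty-vector islands at 48 h were spread over the gene body, and their best ranks (11.1% and 11.9% of the list scoring higher) were modest beside those of Lipe and Lpl. The length new in both empty-vector libraries came to 36 kb, of which 83.3% was in neither SETD5 list at 48 h. Over all 139051 bins of 200 bp that were new in both empty-vector libraries, 30.8% were in neither SETD5 list. The longest absent stretch, chr6:88675601-88684600, covered 9000 bp from 1.2 to 10.2 kb after the start and overlaps an exon of Mgll. It held 800 bp of H3K4me1 at 0 h and 8200 bp at 48 h, and no SETD5-V5 at 6 h. The intergenic stretch with the direct repeat, chr6:88666801-88668600, held no H3K4me1 at 0 h and was covered over its whole 1800 bp at 48 h.

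**Figure D2:**
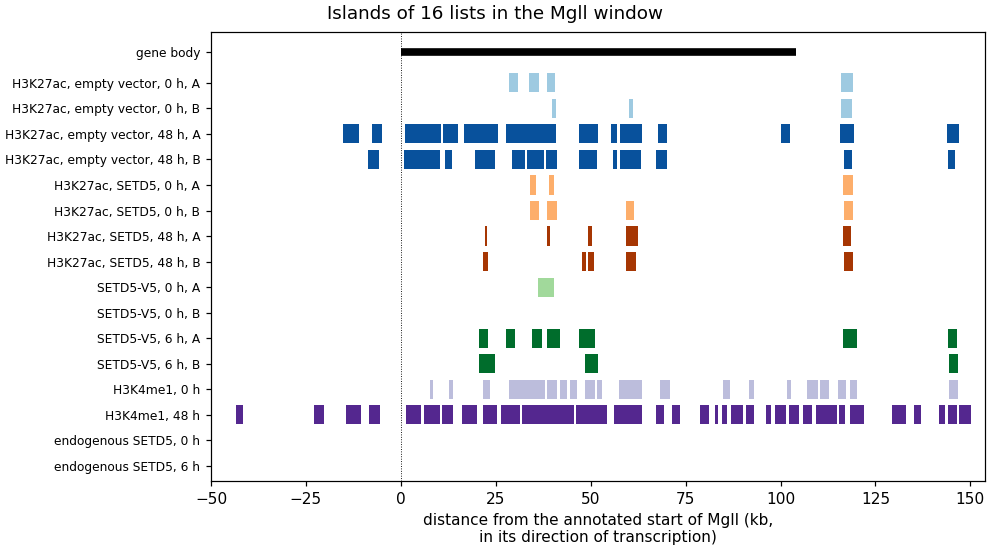
Islands of the 16 lists in the Mgll window, by distance in kb from the annotated start in the direction of transcription; each row is 1 library, coloured bars are islands and the black bar is the gene body. The empty-vector H3K27ac lists at 48 h hold 13 islands each, most inside the gene, the SETD5 lists at 48 h hold 5 each, and H3K4me1 covers 48.2 kb at 0 h and 111.6 kb at 48 h.

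LPL, the secreted lipase, is encoded on chromosome 8 (71404390 to 71431347) with no other coding gene in its window. H3K27ac covered 38.8 and 32 kb with the empty vector at 0 h and 66.1 and 58.8 kb at 48 h. With SETD5 it covered 27.4 and 31.2 kb at 0 h and 34 and 32.2 kb at 48 h. The 48 h lengths did not overlap between the lines, with means of 62.5 ± 5.2 kb and 33.1 ± 1.27 kb (SD, n = 2 each), and 0.237% of windows had a more negative difference. At 0 h the nearest libraries of the 2 lines were 0.8 kb apart, and the SETD5 gain over 48 h of 6.6 and 1.0 kb was likewise small beside the replicate spread. With islands above the median score only, the log2 ratio of that SETD5 change was -0.22.

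The island over the Lpl start was among the strongest at 0 h, with 2.26% and 2.29% of the list scoring higher. With the empty vector it lengthened from 8200 and 6800 bp to 17200 and 13400 bp, and with SETD5 it measured 6200 and 8200 bp at 0 h and 6200 and 8400 bp at 48 h. Its rank at 48 h was 0.949% and 0.848% with the empty vector and 1.91% and 2.31% with SETD5. Within the span of the empty-vector start island of library A, the SETD5 lists at 48 h held separate upstream islands of 1800 bp (A) and 1600 bp (B). Part of the difference in start island length thus lay in how islands were joined. Of 23.4 kb new in both empty-vector libraries, 36.8% was in both SETD5 lists and 45.3% in neither. The longest stretch in neither, chr8:71410201-71413000, lies 5.8 to 8.6 kb inside the gene and reaches an exon, and the next, at 20.4 to 22.4 kb, does too. The longest new stretch present in both, chr8:71371401-71374400, lies at -33 to -30 kb from the start. New acetylation upstream of Lpl was thus partly present with SETD5, while the extension of the start island into the gene was absent.

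**Figure D3:**
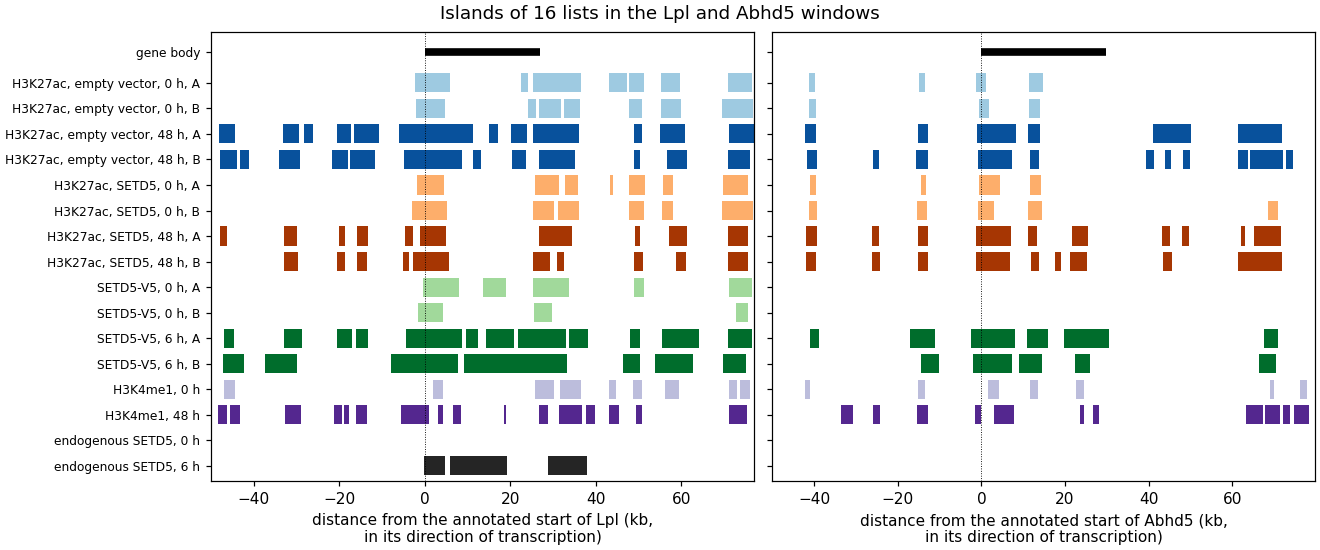
Islands of the 16 lists in the Lpl (left) and Abhd5 (right) windows, by distance in kb from each annotated start in the direction of transcription; each row is 1 library, coloured bars are islands and the black bar is the gene body. The Lpl start island reaches 17200 and 13400 bp in empty-vector cells at 48 h against 6200 and 8400 bp with SETD5, where a separate island lies just upstream. The Abhd5 start island measures 9400 and 8200 bp with the empty vector at 48 h against 8400 and 8200 bp with SETD5. Islands at 21.3 to 25.5 kb after the Abhd5 start are in the SETD5 lists at 48 h only among the H3K27ac lists.

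ADRB3, the β3-adrenergic receptor, is encoded on chromosome 8 (28336248 to 28340060, minus strand), and neither of its annotated starts lay under an island of any list. The window held 8.2 and 6.6 kb of H3K27ac with the empty vector at 0 h and 4.8 and 4.2 kb at 48 h, and 7.0 and 11.6 kb and then 5.2 and 7.6 kb with SETD5. The fall with the empty vector did not overlap, the SETD5 times did, and at 48 h the nearest libraries of the 2 lines were 0.4 kb apart. The higher length with SETD5 at 48 h was not called with flanks of 20 or 100 kb or with equal numbers of islands. With islands above the median score only, it reversed without overlap, to 3.6 and 3.8 kb with SETD5 against 4.8 and 4.2 kb with the empty vector. The highest-scoring island in 8 of 8 H3K27ac lists lay over the start of the neighbour Eif4ebp1, a translation regulator, 28.7 to 35.5 kb upstream of Adrb3. In empty-vector cells at 48 h it was the only island of the window, so these values describe Eif4ebp1 more than the receptor.

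The change over 48 h was smaller with SETD5 in 3 windows, with both SETD5 differences below both empty-vector differences: Mgll (2.0 and -0.4 kb against 55.4 and 43.4 kb), Lpl (6.6 and 1.0 kb against 27.3 and 26.8 kb) and Abhd5. The same held for 35.4% of 18214 windows. With all islands counted, the 2 lines changed alike at Lipe (21.5 and 23.7 kb with SETD5, 24.3 and 20.4 kb with the empty vector). At Pnpla2 they overlapped (12 and 6.8 kb, 6.0 and 10.4 kb). Over the 6 windows 106.4 kb was new in both empty-vector libraries. Of this length 41.2% was in both SETD5 lists at 48 h, 16% in 1 of them and 42.9% in neither, against 50.8%, 18.4% and 30.8% over the genome. Mgll supplied 30 of the 45.6 kb in neither list, and without it the share in neither was 22.2%, below that of the genome. The remaining genes with new acetylation ranged from 3.03% in neither list at Abhd5 to 45.3% at Lpl, with 28% at Pnpla2.

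**Figure D4:**
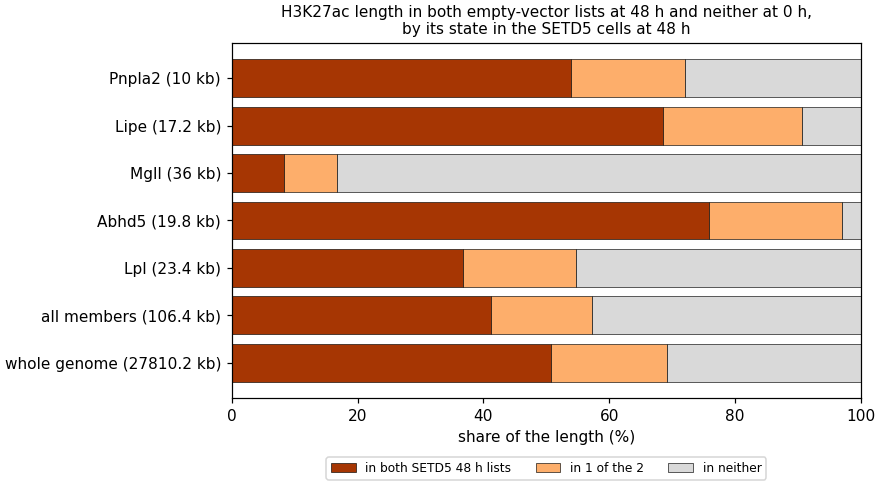
H3K27ac length that was in both empty-vector lists at 48 h and neither at 0 h, split by its state in SETD5 cells at 48 h (share of length, %), for 5 genes, the members together and the whole genome; the length in kb stands beside each name, and Adrb3 had none. Mgll stands out with 83.3% in neither SETD5 list, while Abhd5 and Lipe have 75.8% and 68.6% in both.

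H3K4me1 length rose past 1.5-fold between 0 h and 48 h at 4 of the 6 genes and fell past it at none, with no replicates. Over all windows 32.4% rose and 18% fell past that fold. The length went from 48.2 to 111.6 kb at Mgll (2.32-fold), from 10 to 25.6 kb at Lipe (2.56-fold), from 12 to 28.2 kb at Abhd5 (2.35-fold) and from 25.4 to 41.6 kb at Lpl (1.64-fold). It was 28.2 and 31.8 kb at Pnpla2 and 9.4 and 9.6 kb at Adrb3. The 4 windows were those whose H3K27ac rose with the empty vector. At Mgll 47.8% of the newly acetylated length already carried H3K4me1 at 0 h (27.4% over the genome) and 87.8% carried it at 48 h (52.4% over the genome). At Lpl, Lipe, Abhd5 and Pnpla2 the share with H3K4me1 at 0 h was 11.1%, 12.8%, 20.2% and 22%. Since the labels give SETD-V5 as the virus of these libraries, H3K4me1 at 48 h and H3K27ac with the empty vector come from cells labelled differently.

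SETD5-V5 length was higher at 6 h than at 0 h in 4 windows (Pnpla2, Mgll, Abhd5 and Lpl) and lower in none, against a background of 56.4% higher and 1.3% lower in 16406 windows. The count of members is thus close to what windows at large showed, and the 6 h lists were longer throughout. Lpl carried the most, with 30 and 12.8 kb at 0 h and 66.8 and 69.8 kb at 6 h. Its start was already under a SETD5-V5 island at 0 h (8400 and 5800 bp), and the start island measured 13000 and 15800 bp at 6 h. Abhd5 had no SETD5-V5 island at 0 h and 37.8 and 26.6 kb at 6 h. Pnpla2 went from 15.8 and 4.4 kb to 35.6 and 25.6 kb, and an island of 10600 and 11600 bp lay over its start at 6 h only.

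Mgll was the window with the least H3K27ac in SETD5 cells relative to the empty vector. Its SETD5-V5 length was 4.4 and 0 kb at 0 h and 20.8 and 9.6 kb at 6 h. The latter was 10.2% and 4.71% of its window of 203.949 kb, and the mean rise was exceeded in 32.8% of windows. Of its newly acetylated length 17.8% lay under SETD5-V5 in both 6 h lists (36.5% over the genome). Of the part in neither SETD5 H3K27ac list it was 10.7% (20.3% over the genome). Lipe had none at 0 h, and 15.3 and 0 kb at 6 h, so its 6 islands rest on library A alone. In the Adrb3 window SETD5-V5 covered 25.5 and 5.6 kb at 0 h and 8.2 and 4.8 kb at 6 h, with the 0 h replicates far apart. At Lpl 43.4% of the length absent from SETD5 cells, and 55.8% of the length present in both SETD5 lists, lay under SETD5-V5 in both 6 h lists, and over the genome these shares were 20.3% and 47.2%.

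**Figure D5:**
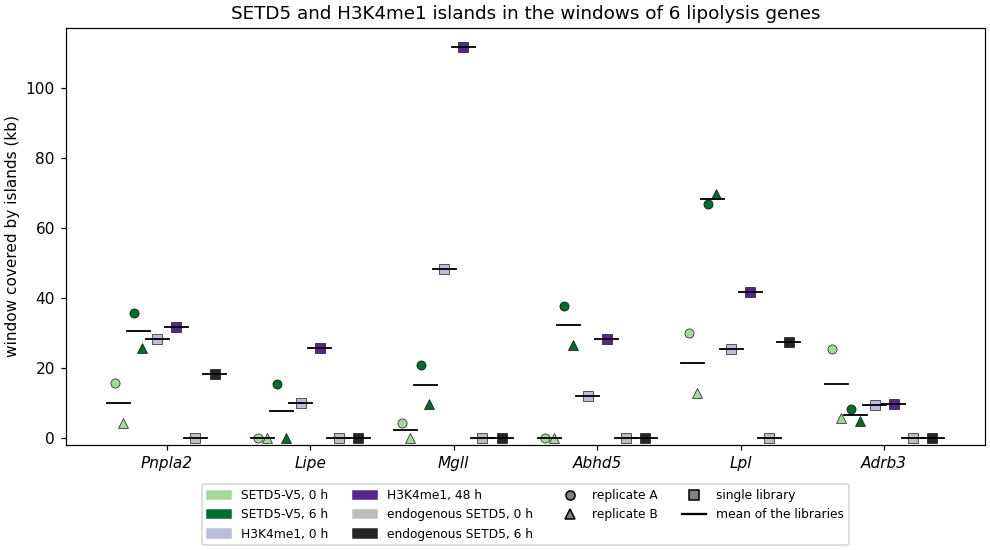
Window length covered by SETD5-V5, H3K4me1 and endogenous SETD5 islands, in kb, for the 6 genes; each point is 1 library (circle, replicate A; triangle, replicate B; square, single library), colours are groups and black lines are means. Lpl has the longest SETD5-V5 cover at 6 h (66.8 and 69.8 kb), Mgll the longest H3K4me1 cover (111.6 kb at 48 h), and endogenous SETD5 is seen at 6 h at Pnpla2 (18.4 kb) and Lpl (27.4 kb).

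Endogenous SETD5, with far shorter lists and no replicates, had no island in any of the 6 windows at 0 h. At 6 h it had 3 islands at Pnpla2 (18.4 kb) and 3 at Lpl (27.4 kb), and none in the other 4 windows. An island at 6 h with none at 0 h was seen in 12.3% of all 22380 windows. The islands over the starts of Pnpla2 (5600 bp) and Lpl (4800 bp) lay where SETD5-V5 also lay at 6 h.

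Of the pathway, 54 other genes were listed in 5 groups by their roles, and 53 had an H3K27ac island in the empty-vector comparison. Over 48 h with the empty vector 28 of the 53 were higher and 5 lower, with a median difference of 3.1 kb (40.1% higher, 23.3% lower and 0.7 kb over all windows tested). With SETD5 14 of 52 were higher and 16 lower over 48 h, with a median of -0.188 kb (31.9%, 30.6% and 0 kb over all windows). At 48 h 29 of 51 were lower with SETD5 than with the empty vector and 4 higher, with a median of -3.1 kb (33.4% lower, 22.6% higher and -0.4 kb over all windows). At 0 h 15 of 53 were higher with SETD5 and 4 lower, with a median of 0.3 kb (25.1% higher, 14.3% lower and 0.3 kb over all windows). SETD5-V5 was higher at 6 h at 29 of 51 and lower at none, with a median of 6.9 kb (56.4% higher, 1.3% lower and 7.6 kb over all windows), so the SETD5-V5 share was that of windows at large.

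The partners and brakes of the triglyceride lipases (G0s2, Plin1, Plin5, Cidec, Hilpda and Fabp4), singled out after their values were seen, were higher over 48 h with the empty vector in 6 of 6 cases (40.1% of all windows) and lower with SETD5 at 48 h in 6 of 6 (33.4% of all windows). Their median differences were 18.6 kb and -13.4 kb. Over 48 h with SETD5, 2 of the 6 were higher (Plin1 and Fabp4) and 4 overlapped between times, with a median of 0.0115 kb. Fabp4, the fatty acid carrier that binds LIPE, had the largest ratio of the list, 9.64, from 2.6 and 2.8 kb to 29.1 and 23 kb, with 9.8 and 11 kb in SETD5 cells at 48 h. Plin1, the droplet coat protein that holds ABHD5 until the cell is stimulated, followed with 9.51, from 2.66 and 2.4 kb to 24.9 and 23.3 kb, with 13 and 12 kb in SETD5 cells. Daglb, a diacylglycerol lipase, had a ratio of 5.95. Adcy5 and Sel1l were higher too, from 0 kb in both libraries at 0 h, and have no ratio.

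In adrenergic and cyclic AMP signalling 10 of 17 genes were higher over 48 h with the empty vector and 2 lower, and 8 of 17 were lower with SETD5 at 48 h and 2 higher. Of the other lipases 8 of 17 were higher and 2 lower over 48 h, and 10 of 17 were lower with SETD5 at 48 h and 1 higher. Of the partners of LPL 4 of 11 were higher and 1 lower over 48 h, and 4 of 10 were lower with SETD5 at 48 h and 1 higher. Over all windows these shares were 40.1% higher and 23.3% lower over 48 h, and 33.4% lower and 22.6% higher with SETD5, so the partners of LPL were near the background. The product carriers Aqp7 and Slc27a1 overlapped between times with the empty vector. The smallest ratios over 48 h among the genes called were those of Gpihbp1 (0.412), which anchors LPL on the capillary wall, Lipa (0.694), the lysosomal acid lipase, and Gnas (0.695), the stimulatory G protein subunit. At Gpihbp1 H3K27ac went from 42.4 and 37.2 kb to 16.2 and 16.6 kb with the empty vector and was 5.6 and 10.4 kb with SETD5 at 48 h.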

How the data were processed

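ChIP-seq was made from 3T3-L1 cells for H3K27ac, H3K4me1, SETD5-V5 and endogenous SETD5, 16 libraries in all. For every library the authors aligned the leading 36 bp of reads (ELAND or Bowtie2, mm9) and ran SICER or SICER2 on it alone (windows of 200 bp, gaps of 400 bp for H3K27ac and H3K4me1 and 600 bp for SETD5, E-value 100). Where the study's records give a count for each of the callers, the deposited list held the SICER2 number of islands. The deposited lists hold island positions and a score per island, with no reads, so scores were used only as ranks within a list.

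The covered length, the number of islands and the best rank were computed in Python 3.11.15 with numpy 2.4.6 for the window of every protein-coding gene of the mm9 annotation (GENCODE M1), plus 50 kb on each side. Grouping followed the sample titles, and no pair of lists was identical. A window was called where both libraries of a group lay beyond both of the other. With 2 libraries per group a two-sided exact permutation test cannot go below 0.333, so no p-value was computed. The calculation was tested on simulated data, where 0 of 5000 windows differed from a direct count. H3K4me1, with 1 library per time, was called past 1.5-fold. Sequences were read from the mm9 genome. The members and the gene lists were chosen with earlier results of these data known. All 6 members are named; of the other 54 genes, those with the 3 largest and 3 smallest ratios of mean empty-vector length among the genes called are named. The 6 partners, the product carriers, Adcy5, Sel1l, Eif4ebp1 and the cell type markers were named after values were seen. Alternatives changed the flank, the islands kept, the measure, the pairing and the libraries used.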

Additional observations from a re-analysis of the deposited data

How the results depend on the processing

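The counts of members above come from 2 libraries per group, and small counts move easily. Over 48 h with the empty vector, the 4 members higher and 1 lower kept within 1.5 times under every alternative run, as did the 4 higher with SETD5. Members lower over 48 h with SETD5, 0 as reported, became 1 with 20 kb or 100 kb on each side, with island numbers, with the share of covered bases and with the replicate block. At 48 h the 2 members lower with SETD5 became 4 with 100 kb and 5, Lipe and Adrb3 among them, with islands above the median score only. The 1 member higher there (Adrb3) became 0 with 20 kb, 100 kb, islands above the median score or equal numbers of islands, and 2 with island numbers. At 0 h the members higher with SETD5 became 2 with islands above the median score or merged within 1000 bp, and the 2 lower became 1 with 20 kb or above the median score and 0 with island numbers. For SETD5-V5 the 4 members higher at 6 h became 2, and the 0 lower became 1, with the share of covered bases, since the 6 h lists cover more of the genome. H3K4me1 lower, 0 as reported, became 1 with 20 kb and with island numbers. With islands above the median score only, the log2 ratio of Lpl in SETD5 cells over 48 h turned to -0.22 and that of Adrb3 between lines at 48 h to -0.28. The cause of these shifts was otherwise not tested.

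Treating equal letters as pairs (replicate block), 5 members rose and 1 fell with the empty vector, 4 rose with SETD5, 3 were lower and 1 higher with SETD5 at 48 h, 2 were lower and 1 higher at 0 h, and SETD5-V5 rose at 4 and fell at 1. The letters share only a name: deviations of letter A correlated at 0.326 and 0.235 between times within a line, 0.487 for SETD5-V5, but -0.0207 and -0.41 between lines at 48 h and 0 h.

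Leaving out 1 library at a time, members higher over 48 h ranged from 4 to 5 with the empty vector and 4 to 5 with SETD5, members lower were 1 with the empty vector throughout and 0 to 2 with SETD5 (2 without SETD5 0 h replicate A). At 48 h members lower with SETD5 ranged from 2 to 5 (5 without empty-vector 48 h replicate B) and members higher from 1 to 2. At 0 h members higher ranged from 1 to 3 (3 without empty-vector 0 h replicate A) and members lower from 2 to 3. For SETD5-V5 the range was 4 to 5 higher and 0 to 1 lower.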

Other observations

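Among windows that hold several genes, the length around a member can follow a neighbour. An island over the start of Eif4ebp1 was present in the Adrb3 window in all 8 H3K27ac lists and all 4 SETD5-V5 lists, and its rank among H3K27ac islands was lower at 48 h than at 0 h in every group, from 3.04% and 2.54% of the list scoring higher to 7.47% and 6.72% with the empty vector, and from 1.9% and 2.15% to 9.4% and 8.31% with SETD5. Abhd5 and Lpl have no other coding gene in their windows.

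Length acetylated only in SETD5 cells at 48 h, in both of their lists and in no empty-vector list, came to 8.6 kb over the 6 windows, with 3.8 kb at Abhd5, 3.2 kb at Lipe, 1.6 kb at Adrb3 and 0 kb at Pnpla2, Mgll and Lpl. Length in both empty-vector lists at 0 h and neither at 48 h came to 5.6 kb, and 0 kb of it was in both SETD5 lists at 48 h, against 4134.4 kb of 25408 kb over the genome.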
